A study of Mus musculus with 11 samples.

Results

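The comparison described here set R3, the first fraction of mouse fetal liver erythroid cells with high Ter119, against R2, the fraction just before it. Its members were the arrays whose titles name R3 or R2, which are 6 of the 11 arrays of the series, with 3 of each stage. All cells came from freshly isolated livers of E14.5 C57/Bl6 embryos, where E14.5 is the embryonic day, with no genotype or treatment given beyond staining and sorting. The livers were stained for the erythroid antigen Ter119 and for CD71, which is the transferrin receptor, and sorted into the stages R1 to R5. In the scheme the labels cite, CD71 is high in both R2 and R3, and R3 differs from R2 by its gain of Ter119. Nothing in the labels names a further gate, and nothing says whether the 3 arrays of a stage stem from different litters or sorts. The p-values thus reflect no more than array-to-array spread, part or all of which may be technical.

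Red cells of the mammalian fetus are made in the liver from progenitors that depend on the receptors for stem cell factor and erythropoietin. Proerythroblasts become basophilic, polychromatic and then orthochromatic erythroblasts through a few divisions, while the nucleus condenses and is then lost. During these steps the cell fills with hemoglobin, builds the red cell membrane, and gives up most other organelles. Gain of Ter119, which is associated with glycophorin on the surface, is widely used to mark the passage from proerythroblasts to later erythroblasts.

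Signal was measured on short-oligonucleotide arrays, and a log2 change here is the mean log2 signal of R3 minus that of R2, with the standard error (SE) of a limma fit over 13100 genes. A gene was called at a Benjamini-Hochberg adjusted p under 0.05, and "rose" and "fell" are used only of called genes. Within R2 and within R3, pairs of arrays had r = 0.91 to 0.95 over genes (a description, since genes are not independent). The median signal was 53.6 to 66.9 on the R2 arrays and 72.5 to 87.2 on the R3 arrays. For the pyruvate carboxylase control, the log2 signal of the 3' probe set minus that of the 5' one was 0.75 to 1.84 in R2 and 2.45 to 3.29 in R3, without overlap, while that of beta-actin was 0.32 to 0.79 and 0.24 to 0.83. What part this difference had in the results below was not tested.

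Of the 13100 genes, 2716 were called, or 20.7%, of which 1388 rose (10.6%) and 1328 fell (10.1%). An unadjusted p under 0.05 was reached by 5258. The median of the rises was 1.99 on the log2 scale and 312 exceeded 3, while the median of the falls was -1.62 and 46 fell by over 3. R2 and R3 arrays did not overlap in 49.9% of all genes, called or not (22.6% with R3 above and 27.4% with R3 below), and in 1386 of the rises and 1307 of the falls. The median change of all genes was -0.14. Because signal is set relative to each array's own total, fewer cells of a type and less RNA per cell cannot be told apart. With every array centred on its median instead, the median change was -0.55, a shift of -0.40, and the share of calls that rose was 21.7% where it was 51.1% on the deposited scale. No called gene changed sign under that scaling, but which direction had the larger changes did turn, with medians of 1.59 for the same rises and -2.03 for the same falls.

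**Figure D1:**
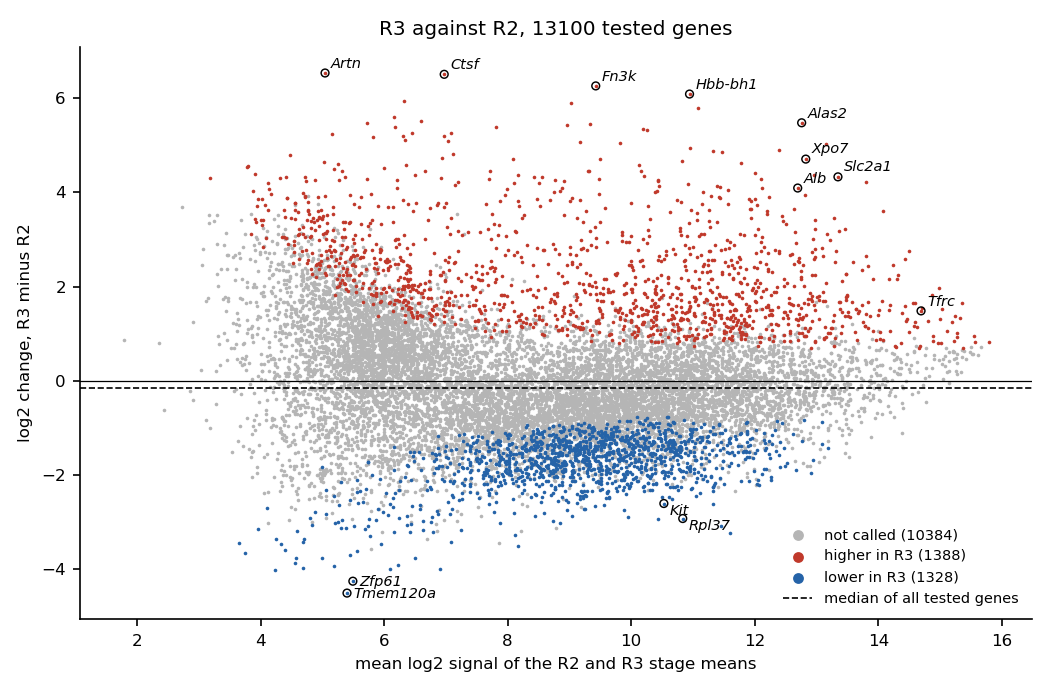
Log2 change from R2 to R3 against mean log2 signal for 13100 tested genes, with called rises in red, called falls in blue and the other genes in grey. The 1388 rises reach 6.54 and the 1328 falls reach -4.50, and the dashed line is the median of all genes at -0.14.

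Single arrays carried weight. The number called was 840 without replicate 1 of R2, 1095 without replicate 2 of R2, 1515 without replicate 1 of R3 and 845 without replicate 2 of R3. In all 10 fits that leave out 1 array of R1, R2, R3 or R5, the calls of 559 rises (40.3%) and 157 falls (11.8%) were kept. Genes named below kept their call in all 10 of these fits unless an array is named or a loss is stated. Shares of the lists below stand beside the 10.6% of all genes that rose and the 10.1% that fell. Counts in the gene lists below moved too. So the counts with arrays centred on their median, where 6.58% of all genes rose and 23.7% fell, and the range over the 10 fits are given beside those where they differ by more than 1.5 times.

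Before the erythroid genes, the markers of other fetal liver cells are given, because some of them moved with the sort. All 16 measured markers of hepatocytes, the parenchymal cells of the liver, rose, with changes from 2.45 to 4.81 and a median of 3.82. Alb, the main plasma protein gene, named after its values were seen, was at 10.22, 10.92 and 10.79 on the R2 arrays and 14.67, 15.17 and 14.39 on the R3 arrays (log2 change 4.09 ± 0.44, limma adjusted p = 0.000523). The R3 arrays lay above the R2 arrays in each of the 16. The summed signal of the list was 3929 to 12119 on the R2 arrays, 15999 to 19985 on the R1 arrays, 75860 to 128474 on the R3 arrays and 95604 to 276133 on the R5 arrays. Apoa1 changed by 4.58 ± 0.46 and Fgg by 4.33 ± 0.56, whose products are an apolipoprotein and a fibrinogen chain. The call of Ahsg, the member with the largest change, was kept except without replicate 2 of R3 (limma adjusted p = 0.0578).

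Of 16 endothelial and stromal markers 7 rose (43.75%) and none fell, with a median of 1.66. With 1 array left out 3 to 9 rose. Their summed signal was 651 to 782 in R2 and 1676 to 2881 in R3. The R1 arrays, at 2359 and 1934, also lay above all R2 arrays, as did the R5 arrays at 6871 and 3017. The sum of these markers was thus lower in R2 than in R1, R3 or R5. The collagen gene Col3a1 changed by 3.26 ± 0.71 and the endomucin gene Emcn by 2.65 ± 0.69. The endothelial members did not all move together. Stab2 was called too (1.53 ± 0.39), though its fits with 1 array left out are not given. Kdr, Lyve1, Tek and Cdh5 had positive changes that did not pass the test. Pecam1 (-1.83 ± 0.82) and Tie1 (-0.60 ± 1.22) had negative changes that did not pass. Between 10 and 15 of the 16 lay below the array median on each R2 array, and 6 or 7 on each R3 array. Calls were lost for Col3a1 without R2 replicate 1 (limma adjusted p up to 0.0573), Emcn without R2 replicate 2 or R3 replicate 1 or 2 (limma adjusted p up to 0.0765) and Cxcl12 without R2 replicate 1 or 2 or R3 replicate 1 or 2 (limma adjusted p up to 0.106). Of 14 macrophage markers, with a median of 0.95, 2 rose (14.3%): the complement gene C1qc (2.36 ± 0.61) and the mannose receptor gene Mrc1 (1.32 ± 0.36). Both calls were lost without R2 replicate 1 or 2 or R3 replicate 1 or 2 (limma adjusted p up to 0.0951 and 0.115). The summed signal of that list was 7387 to 9458 in R2 and 10659 to 11760 in R3. In this sum too, R2 was below R1 (12557 and 18720) and R5 (13049 and 13787). The R1 arrays were above the R3 arrays in it. The mean log2 signal of the macrophage list did not give that order for R1. It was 7.565 and 8.99 on the R1 arrays, 7.598 to 8.168 in R2 and 8.54 to 9.001 in R3.

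In the granulocyte, megakaryocyte, lymphocyte and mast cell lists, 2 genes were called in all. Of 12 granulocyte markers and of 12 megakaryocyte markers 0 were called in limma's fit with or without an intensity trend, with medians of -0.34 and 0.09, and 0 and 1 of them had an unadjusted p under 0.05. Granulocyte genes were bright in both stages, but their summed signal differed between arrays of a stage. It was 211561, 224322 and 84983 on the R2 arrays and 80953, 110667 and 220821 on the R3 arrays. Of 13 lymphocyte markers 1 was called (7.69%), Cd8a (1.83 ± 0.44), and the median was -1.27. Their summed signal was 1053 to 8254 in R2 and 1017 to 2470 in R3. Of 8 mast cell markers, with a median of -0.11, Hdc, the histidine decarboxylase gene, fell (-2.98 ± 0.76), or 12.5%. Hdc was at 11.06, 11.12 and 8.47 on the R2 arrays and 7.10, 6.24 and 8.38 on the R3 arrays. The summed signal of the mast cell list was 3542, 4516 and 696 on the R2 arrays and 1058, 823 and 1444 on the R3 arrays. Calls were not kept for Cd8a without R2 replicate 2 or R3 replicate 1 or 2 (limma adjusted p up to 0.0711) and Hdc without R2 replicate 1 or 2 or R3 replicate 1 or 2 (limma adjusted p up to 0.0951). No marker of any of these lists was at 0, since every deposited signal is positive. Whether hepatocytes, stroma, other blood cells or free RNA from any of them took part in the rises and falls described here was not tested.

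**Figure D2:**
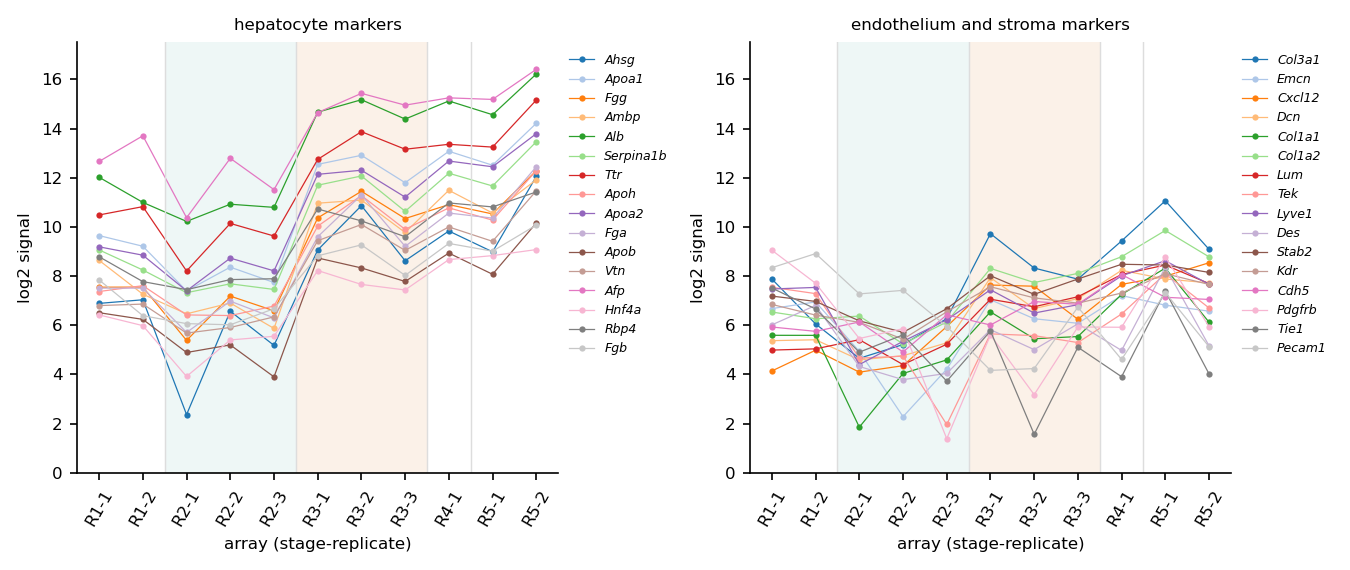
Log2 signal of the 16 hepatocyte markers (left) and 16 endothelial and stromal markers (right) on each of the 11 arrays, written as stage and replicate, with thin lines that only join the points of 1 gene. The hepatocyte markers are higher on each R3 array than on any R2 array, and their summed signal is 75860 to 128474 in R3 against 3929 to 12119 in R2.

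The surface of the cell changed at this step in genes beyond the sorting antigens. Of 22 measured surface markers of erythroid maturation 11 rose and 2 fell, or 50% and 9.09% of the list beside 10.6% and 10.1% of all genes, and its median was 1.44. Over the fits without 1 array, 7 to 13 rose and 2 to 4 fell, and after centring 10 rose and 3 fell. Tfrc, which encodes CD71, was at 13.52, 13.83 and 14.49 on the R2 arrays and 15.24, 15.45 and 15.61 on the R3 arrays, so the groups did not overlap and R3 was higher (1.49 ± 0.32, limma adjusted p = 0.0125). Without replicate 1 of R2 its adjusted p was 0.0614.

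Blood group and complement-control genes were among the rises. Kel, which encodes the Kell blood group protease, was at 10.99, 12.0 and 12.34 on the R2 arrays and 14.83, 15.31 and 14.71 on the R3 arrays. All R3 arrays were above all R2 arrays (3.18 ± 0.48, limma adjusted p = 0.00229). Cd59a, an inhibitor of the complement attack complex, rose by 3.84 ± 0.41 and Icam4, the Landsteiner-Wiener blood group adhesion protein, by 2.63 ± 0.34. Cd36, a scavenger receptor, had the largest change of the list and was at 6.0, 7.80 and 7.47 on the R2 arrays and 10.41, 12.81 and 11.41 on the R3 arrays, with a wide spread in both stages (4.45 ± 1.13). Its call was lost without R2 replicate 1 or R3 replicate 2 (limma adjusted p up to 0.0915).

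Both falls of the list were in receptors. Kit, the receptor for stem cell factor, was at 11.78, 11.93 and 11.77 on the R2 arrays and 9.15, 8.98 and 9.55 on the R3 arrays. The groups were clearly apart, with replicate 3 of R3 the nearest to R2 (-2.60 ± 0.39, limma adjusted p = 0.00229). Cd44, a hyaluronan receptor whose surface level is used to stage erythroblasts, was at 12.58, 12.69 and 12.23 on the R2 arrays and 10.36, 9.30 and 10.82 on the R3 arrays. Its R3 arrays were all lower, and replicate 2 was lowest (-2.34 ± 0.42, limma adjusted p = 0.00534). In contrast Itgb1, Aqp1 and Maea did not pass the test, with changes of -0.49, 0.23 and -0.03.

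Among 28 adhesion molecules of erythroblasts, some shared with the surface list, 6 rose and 2 fell, or 21.4% and 7.14%, and the median was -0.70. Centring gave 4 rises and 9 falls, and leaving out 1 array gave 4 to 6 rises and 2 to 11 falls. The tetraspanins went both ways: Cd82 rose (2.77 ± 0.41) and Cd81 fell (-1.69 ± 0.33). Cd81 was at 12.38, 12.22 and 12.38 on the R2 arrays and 10.85, 10.03 and 11.02 on the R3 arrays, without overlap. For Cd82, 1 of 2 tested probe sets had the opposite sign. Of 15 haematopoietic progenitor markers, Tal1 and Lmo2 rose and Kit and Myb fell, or 13.3% each way, with a median of -1.01. With 1 array left out 1 to 5 fell. Tal1 and Lmo2 encode partners in an erythroid DNA-binding complex, and Tal1 was at 12.11, 12.19 and 12.72 on the R2 arrays and 14.57, 14.81 and 14.47 on the R3 arrays. It was higher on every R3 array (2.27 ± 0.31, limma adjusted p = 0.00149). The other members had changes that did not pass, among them -1.39 for Spi1 and -1.62 for Cd34. The test was no longer passed by Lmo2 without R2 replicate 1 or 2 or R3 replicate 2 (limma adjusted p up to 0.077) and Myb without R2 replicate 1 or R3 replicate 2 (limma adjusted p up to 0.0565).

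The largest rises came from genes of varied function. Artn, which encodes the neurotrophic ligand artemin, was at 2.38, 2.31 and 0.64 on the R2 arrays and 8.28, 8.78 and 7.87 on the R3 arrays. R2 was close to the bottom of the scale and R3 was not (6.54 ± 0.74, limma adjusted p = 0.000648). Ctsf, the lysosomal protease cathepsin F, was at 3.55, 5.17 and 2.43 on the R2 arrays and 10.19, 10.55 and 9.94 on the R3 arrays, with all R3 arrays close together (6.51 ± 0.60, limma adjusted p = 0.000311). Fn3k, a kinase that removes sugar from glycated proteins, changed by 6.26 ± 0.93. Runx1t1, a transcriptional corepressor, changed by 5.91 ± 0.79.

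The remaining largest rises were Hbb-bh1 (6.09 ± 0.59), Mmel1 (5.95 ± 0.76), Hbb-b2 (5.80 ± 1.03), Igfbp1 (5.61 ± 1.08), Prr15l (5.52 ± 0.46), Alas2 (5.48 ± 1.15), Rsad2 (5.43 ± 1.13) and Mir22hg (5.40 ± 1.07). Hbb-bh1 and Hbb-b2 are globin genes, and a further probe set of Hbb-b2 had the opposite sign. Igfbp1 encodes a secreted binding protein of insulin-like growth factors that hepatocytes make, and its rise stands beside the rise of the hepatocyte markers. Artn, Ctsf, Mmel1, Igfbp1 and Prr15l lay below the array median on all R2 arrays, so how large the change was is less certain. This held for 309 of all rises, or 22.3%. Only genes at or above the array median on at least 2 arrays were tested. Genes dim on all R2 arrays thus entered through other stages, which include R3, where they are higher. Ctsf, below the array median in R1 as well, entered only through R3 to R5.

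Alas2 encodes the first enzyme of heme synthesis in erythroid cells and is known as a Gata1 target. It was at 8.18, 11.10 and 10.77 on the R2 arrays and 15.35, 15.68 and 15.47 on the R3 arrays, so that R3 was uniform and R2 was not (limma adjusted p = 0.0107). Samd11 was at 6.83, 7.42 and 7.62 on the R2 arrays and 12.24, 13.02 and 11.78 on the R3 arrays. It was among the rises with the largest ratio of change to error (5.06 ± 0.40, limma adjusted p = 0.000191). The windows of both genes, from 250 bases before to 50 after the RefSeq gene start on GRCm38.p6, each hold 1 AGATAA motif of the Gata type, which lies on the opposite strand and so reads as TTATCT (capitals). They are shown because both are strong rises that hold it, and the match is a description of letters, not of binding.
Alas2, chrX:150547167-150547466, + strand: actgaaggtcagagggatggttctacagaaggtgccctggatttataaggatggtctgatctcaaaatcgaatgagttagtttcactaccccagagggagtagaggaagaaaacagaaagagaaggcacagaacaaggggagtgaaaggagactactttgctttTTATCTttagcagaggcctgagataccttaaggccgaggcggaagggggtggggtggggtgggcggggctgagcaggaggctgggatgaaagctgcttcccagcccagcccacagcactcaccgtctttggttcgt
Samd11, chr4:156255293-156255592, - strand: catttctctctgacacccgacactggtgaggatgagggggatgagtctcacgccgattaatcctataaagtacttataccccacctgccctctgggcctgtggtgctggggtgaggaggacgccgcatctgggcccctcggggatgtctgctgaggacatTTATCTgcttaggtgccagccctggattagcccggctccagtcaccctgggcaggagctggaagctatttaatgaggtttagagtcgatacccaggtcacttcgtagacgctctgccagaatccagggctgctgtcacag

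Mir22hg is the host transcript of a microRNA on chromosome 11, and the array measured the host and not the mature product. It was at 2.27, 6.88 and 6.20 on the R2 arrays and 10.26, 11.47 and 9.81 on the R3 arrays, without overlap and with a wide spread in R2 (limma adjusted p = 0.00887). The mature sequences of the locus in RefSeq, on GRCm38.p6, are shown because the 2 arms have different seeds (bases 2 to 8, in capitals).
mmu-miR-22-5p, chr11:75463734-75463755, + strand: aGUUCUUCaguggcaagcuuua
mmu-miR-22-3p, chr11:75463772-75463793, + strand: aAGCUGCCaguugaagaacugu

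Other rises stood out by their small error. Slc2a1, which encodes a glucose transporter, was at 11.26, 11.60 and 10.67 on the R2 arrays and 15.56, 15.64 and 15.34 on the R3 arrays. The R3 arrays were close together and lay well above R2 (4.33 ± 0.29, limma adjusted p = 9.82e-05). Tbcel, a gene of the tubulin cofactor family, changed by 4.01 ± 0.26, the ubiquitin ligase gene Rnf11 by 4.08 ± 0.29 and the phosphatase gene Ptp4a3 by 3.46 ± 0.26, with limma adjusted p from 9.82e-05 to 0.000169.

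**Figure D3:**
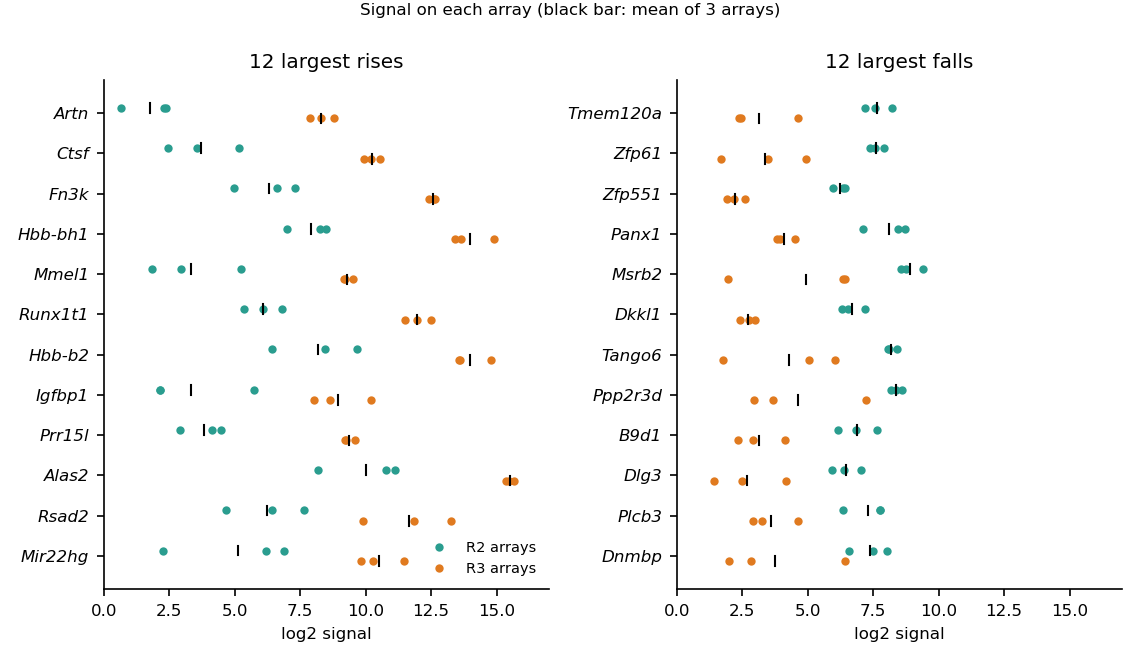
Log2 signal on each R2 array (green) and R3 array (orange) for the 12 largest rises and the 12 largest falls whose arrays do not overlap, with a black bar at the mean of 3 arrays. Artn leads the rises at 6.54 and Tmem120a the falls at -4.50, and in each gene no R3 array lies among the R2 arrays.

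The largest falls were in genes of low signal. Tmem120a was at 8.20, 7.58 and 7.17 on the R2 arrays and 4.64, 2.36 and 2.45 on the R3 arrays. All R3 arrays were lower, and below the array median (-4.50 ± 0.89, limma adjusted p = 0.00841). Zfp61 changed by -4.25 ± 0.76 and Zfp551 by -4.0 ± 0.85, both zinc finger protein genes. Panx1, which encodes a channel that releases ATP, was at 8.72, 8.45 and 7.10 on the R2 arrays and 4.52, 3.94 and 3.84 on the R3 arrays, without overlap (-3.99 ± 0.65, limma adjusted p = 0.00344). Msrb2, a mitochondrial methionine sulfoxide reductase, changed by -3.98 ± 1.07, Dkkl1 by -3.96 ± 0.74, Tango6 by -3.91 ± 1.01 and Ppp2r3d, a regulatory subunit of a protein phosphatase, by -3.76 ± 0.96.

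B9d1, a gene of the cilium base, changed by -3.75 ± 0.77, the scaffold gene Dlg3 by -3.75 ± 0.80, the phospholipase C gene Plcb3 by -3.70 ± 0.59 and Dnmbp, a regulator of the small GTPase Cdc42, by -3.61 ± 1.01. Of these 12 falls, 9 lay below the array median on all R3 arrays, which leaves the size of the change less certain. That held for 83 of all falls, or 6.25%, which in turn entered the test through stages other than R3. Calls were lost for Zfp551 and Dlg3 without R2 replicate 1 (limma adjusted p up to 0.0614), Msrb2 without R2 replicate 1 or 2 (limma adjusted p up to 0.0971), Tango6 without R2 replicate 1 or 2 or R3 replicate 2 (limma adjusted p up to 0.0765), Ppp2r3d without R2 replicate 1 or 2 or R3 replicate 2 or 3 (limma adjusted p up to 0.0894) and Dnmbp without R2 replicate 1 or 2 or R3 replicate 1 or 2 (limma adjusted p up to 0.112). Another probe set of Dnmbp had the opposite sign.

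A further 6 falls had the largest ratio of change to error. Plscr1, a phospholipid scramblase, was at 10.05, 10.22 and 9.37 on the R2 arrays and 7.12, 6.62 and 7.28 on the R3 arrays, without overlap (-2.87 ± 0.36, limma adjusted p = 0.00106). Adss, an enzyme of adenylate synthesis, was at 11.92, 11.97 and 12.14 on the R2 arrays and 10.21, 10.05 and 10.46 on the R3 arrays. Its change was small for its place in the order, with arrays of each stage close together (-1.77 ± 0.25, limma adjusted p = 0.00165). Hlcs, the enzyme that attaches biotin to carboxylases, changed by -3.30 ± 0.45, Zfp395 by -2.36 ± 0.33, the splicing helicase gene Dhx38 by -3.21 ± 0.46 and Thumpd1, a gene of tRNA acetylation, by -2.88 ± 0.41. Hlcs and Dhx38 lay below the array median on all R3 arrays.

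Genes that make nucleotides and one-carbon units were called lower more often than higher. Of 28 nucleotide synthesis genes 8 fell and 1 rose, or 28.6% and 3.57% beside 10.1% and 10.6% of all genes, with 22 negative changes and a median of -1.08. Of 16 serine and one-carbon genes 6 fell and 2 rose, or 37.5% and 12.5%, with a median of -1.16. Both sets feed purines, thymidylate and methyl groups to dividing cells. With arrays centred on their median, 15 nucleotide and 9 one-carbon genes fell. With 1 array left out the falls numbered 3 to 11 and 1 to 8, and the rises 1 to 3 and 1 or 2.

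Psat1, an enzyme of serine synthesis, was at 13.03, 12.50 and 12.36 on the R2 arrays and 10.37, 9.14 and 10.54 on the R3 arrays. The R3 arrays were all below R2 and replicate 2 was lowest (-2.61 ± 0.42, limma adjusted p = 0.00333). Adsl, which acts at 2 steps of purine synthesis, was at 11.68, 11.51 and 11.49 on the R2 arrays and 9.98, 8.92 and 9.99 on the R3 arrays, without overlap (-1.93 ± 0.38, limma adjusted p = 0.00833). Dhodh, the mitochondrial enzyme of pyrimidine synthesis, changed by -2.40 ± 0.67 and Ppat, which starts purine synthesis, by -1.88 ± 0.44. The folate carriers went the same way, with -1.94 ± 0.44 for mitochondrial Slc25a32 and -1.93 ± 0.53 for Slc19a1 of the plasma membrane.

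The exceptions were few. Nt5c3, which breaks down pyrimidine nucleotides and whose loss in humans causes a hemolytic anemia, was at 11.58, 11.59 and 12.14 on the R2 arrays and 14.36, 14.78 and 14.14 on the R3 arrays. It rose on all R3 arrays (2.65 ± 0.30, limma adjusted p = 0.000687). Slc1a5, a glutamine transporter, rose by 2.42 ± 0.42 and Mthfd2, a mitochondrial folate enzyme, by 1.30 ± 0.31. Calls were not kept for Dhodh without R2 replicate 1 or 2 or R3 replicate 1 or 2 (limma adjusted p up to 0.12), Ppat and Slc25a32 without R2 replicate 1 or R3 replicate 2 (limma adjusted p up to 0.064), Slc19a1 without R2 replicate 1, 2 or 3 or R3 replicate 2 (limma adjusted p up to 0.109) and Mthfd2 without R2 replicate 1 or 2 or R3 replicate 2 (limma adjusted p up to 0.0745).

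Among 15 amino acid transporters 5 rose and 3 fell, or 33.3% and 20%, with a median of 0.07. Over the fits without 1 array 0 to 3 fell (4 of each after centring). Slc6a9, the glycine transporter, carries a substrate of heme synthesis and was at 8.70, 9.54 and 9.83 on the R2 arrays and 12.54, 13.47 and 12.32 on the R3 arrays. It was higher on all R3 arrays (3.42 ± 0.44, limma adjusted p = 0.00116). Slc43a1 rose by 2.84 ± 0.47 and the aromatic amino acid transporter gene Slc16a10 by 2.52 ± 0.32. Slc36a1, a lysosomal exporter of small amino acids, changed by -2.22 ± 0.71, Slc38a1 by -2.06 ± 0.56 and the taurine transporter gene Slc6a6 by -1.43 ± 0.34. The test was no longer passed by Slc36a1 without R1 replicate 1 or 2 or R2 replicate 1, 2 or 3 or R3 replicate 1, 2 or 3 (limma adjusted p up to 0.14), Slc38a1 without R2 replicate 1 or 2 or R3 replicate 1 or 2 (limma adjusted p up to 0.115) and Slc6a6 without R2 replicate 1 or 2 (limma adjusted p up to 0.0783). Taking the median over its probe sets turned the change of Slc6a6 to 0.53.

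Mitochondrial genes were described in several lists. Of 74 mitochondrial ribosomal proteins 9 fell and none rose, or 12.2% against the 10.1% of all genes, and 70 of the 74 changes were negative, with a median of -0.87. With arrays centred on their median 35 of them fell. None of the 9 calls was kept in all fits that leave out 1 array, and the count of falls ranged from 0 to 31 over those fits. Mrps6 changed by -2.06 ± 0.65 and Mrpl19 by -1.99 ± 0.54. Their limma adjusted p reached 0.165 and 0.107 with an array of R2 or R3 left out. Of 67 respiratory chain and ATP synthase genes 7 rose and 1 fell, or 10.4% and 1.49%, with a median of 0.07. After centring 0 rose and 6 fell, and 0 to 11 rose and 0 to 3 fell with 1 array left out.

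That list split nearly evenly, with 35 positive and 32 negative changes. Its rises were of about 1 or less, as in Cox6a1 (1.07 ± 0.25), a subunit of cytochrome oxidase, and 0 of them were kept after centring arrays on their median or quantile normalization. Sdhd, a subunit of succinate dehydrogenase, changed by -1.41 ± 0.36. Of 18 genes around the tricarboxylic acid cycle 4 fell and 1 rose, or 22.2% and 5.56%, with a median of -0.79. Its falls were 12 after centring and 0 to 8 with 1 array left out, and its rises 1 and 1 or 2. Pcx, pyruvate carboxylase, which refills the cycle, was at 7.73, 8.36 and 8.81 on the R2 arrays and 11.33, 11.74 and 11.14 on the R3 arrays. It was higher on every R3 array (3.10 ± 0.38, limma adjusted p = 0.000921). Pcx is also the transcript of the control whose 3' minus 5' difference is given above. Suclg2 changed by -1.87 ± 0.40 and Idh2 by -1.75 ± 0.50. Calls were lost for Cox6a1 without R2 replicate 1 or 2 (limma adjusted p up to 0.069), Sdhd without R2 replicate 1 or 2 or R3 replicate 2 (limma adjusted p up to 0.0939), Suclg2 without R2 replicate 1 or R3 replicate 2 (limma adjusted p up to 0.0511) and Idh2 without R2 replicate 1 or 2 or R3 replicate 1 or 2 (limma adjusted p up to 0.132).

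Few genes of the translation machinery passed the test. Of 43 measured cytosolic ribosomal proteins, of 79 listed, 4 rose and 3 fell, or 9.30% and 6.98%, which is near the share of all genes, and 36 changes were positive with a median of 0.46. The rises were of under 1, as in Rplp0 (0.82 ± 0.25), and 0 of them passed after quantile normalization or centring. Leaving out 1 array gave 0 to 9 rises and 1 to 5 falls. Rpl37 had the largest fall, at 12.27, 12.15 and 12.46 on the R2 arrays and 9.73, 8.60 and 9.79 on the R3 arrays, with all R3 arrays lower (-2.92 ± 0.52, limma adjusted p = 0.00528). Rpl12 (-1.90 ± 0.41) and Rps25 (-1.43 ± 0.33) also fell, but not in every fit that leaves out 1 array. Their R2 means were 10.47 and 10.73, and that of Rplp0 15.15. Rpl14 and Rps6, at 11.20 and 11.55, were lower on all R3 arrays and did not pass. Rpl39, Rps27 and Rpl27a, at 7.06, 8.30 and 9.96, had positive changes that did not pass either (1.23 ± 0.88, 0.13 ± 0.62 and 0.72 ± 0.32). Ribosomal protein genes have many processed copies, so which transcripts a probe set measured is uncertain.

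Of 38 initiation and elongation factors 2 rose and 3 fell, or 5.26% and 7.89%, with a median of -0.31. Centred arrays gave 1 rise and 12 falls, and single arrays left out gave 1 to 6 rises and 0 to 9 falls. Eif5, which releases initiation factors when the start codon is found, rose by 1.53 ± 0.32. Eif1a changed by -2.16 ± 0.49. Of 21 aminoacyl-tRNA synthetases 0 were called in limma's fit with or without an intensity trend and 6 had an unadjusted p under 0.05, with a median of -0.67 and 15 negative changes. With arrays centred on their median 5 of the synthetases fell. Calls were not kept for Eif1a without R2 replicate 1 or R3 replicate 2 (limma adjusted p up to 0.0614) and Rplp0 without R1 replicate 1 or 2 or R2 replicate 1 or 2 or R3 replicate 1, 2 or 3 (limma adjusted p up to 0.146).

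Of 20 genes of the integrated stress response 5 rose and 1 fell, or 25% and 5% beside 10.6% and 10.1% of all genes, with a median of 0.27. After centring 3 rose and 3 fell, and 2 to 5 rose and 0 to 2 fell with 1 array left out. Eif2ak1, the kinase that slows globin translation when heme is short, was at 10.85, 11.17 and 11.58 on the R2 arrays and 13.80, 14.51 and 14.05 on the R3 arrays. The groups were well apart (2.92 ± 0.38, limma adjusted p = 0.0011). Ppp1r15a, whose product directs removal of the phosphate that such kinases add to an initiation factor, was at 10.40, 10.55 and 10.33 on the R2 arrays and 13.91, 14.52 and 13.52 on the R3 arrays, again without overlap (3.55 ± 0.36, limma adjusted p = 0.000436). Chac1, which degrades glutathione, rose by 1.71 ± 0.38. Eif2ak4, the kinase that senses amino acid shortage, fell (-1.46 ± 0.46). Ddit3 (1.36 ± 0.31, limma adjusted p = 0.0146) and Atf4 (0.93 ± 0.30, limma adjusted p = 0.04995) also rose. Neither call was kept in every fit that leaves out 1 array. Asns, an established target of the response, was higher on all R3 arrays but did not pass the test (0.72 ± 0.30). The test was no longer passed by Chac1 without R2 replicate 2 or R3 replicate 2 (limma adjusted p up to 0.0591) and Eif2ak4 without R1 replicate 1 or 2 or R2 replicate 1, 2 or 3 or R3 replicate 1 or 2 (limma adjusted p up to 0.142).

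**Figure D4:**
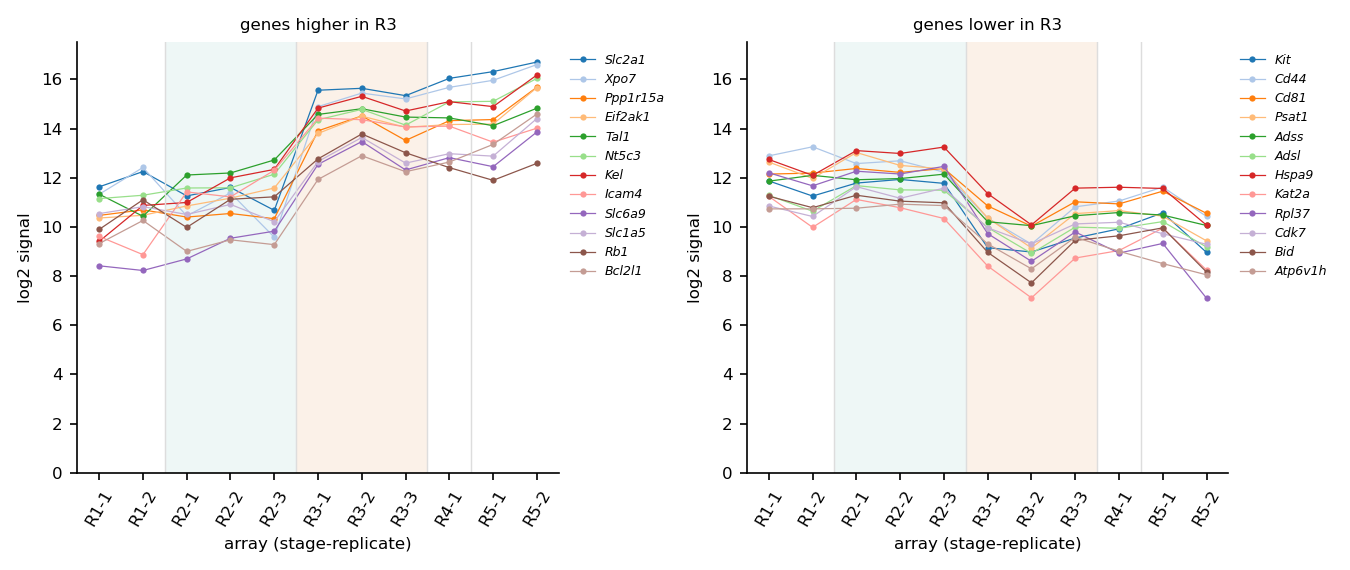
Log2 signal on each of the 11 arrays, written as stage and replicate, for 12 genes higher in R3 (left) and 12 lower in R3 (right), chosen for display after their values were seen, with thin lines that only join the points of 1 gene. Slc2a1 lies at 11.26, 11.60 and 10.67 on the R2 arrays and 15.56, 15.64 and 15.34 on the R3 arrays, and Kit at 11.78, 11.93 and 11.77 on the R2 arrays and 9.15, 8.98 and 9.55 on the R3 arrays.

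Genes of protein folding and turnover were called in both directions. Of 38 chaperones 7 fell and 3 rose, or 18.4% and 7.89% beside 10.1% and 10.6% of all genes, with a median of -0.58. Centring gave 17 falls and 2 rises, and the fits without 1 array gave 2 to 12 falls and 2 or 3 rises. Hspa9, the Hsp70 of mitochondria, was at 13.10, 12.99 and 13.25 on the R2 arrays and 11.36, 10.08 and 11.58 on the R3 arrays, lower on all R3 arrays (-2.11 ± 0.46, limma adjusted p = 0.0123). Dnajc7 fell by 1.41 ± 0.29 and Stip1, which links Hsp70 to Hsp90, by 1.55 ± 0.36. Dnajb2, a co-chaperone that binds ubiquitin, was at 6.40, 7.30 and 7.51 on the R2 arrays and 11.37, 12.19 and 11.04 on the R3 arrays. It was far higher on the R3 arrays (4.46 ± 0.45, limma adjusted p = 0.000438), and Dnajb4 rose by 2.94 ± 0.34.

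Of 42 deubiquitinating enzymes 4 rose and 2 fell, a share near that of all genes or below it, with a median of 0.04. Centred, 2 rose and 7 fell, and 2 to 10 rose and 0 to 4 fell with 1 array left out. Otub2 changed by 3.45 ± 0.68 and Usp32 by 3.0 ± 0.44. Of 41 proteasome subunits and regulators 2 rose and 1 fell, or 4.88% and 2.44%, with a median of -0.08. Centring gave 1 rise and 4 falls, and the fits without 1 array 1 to 3 rises and 0 to 4 falls. Psme3, a nuclear activator of the proteasome, rose by 1.91 ± 0.34. The other 38 measured genes of that list did not pass the test. Calls were lost for Stip1 and Psmd7 without R2 replicate 1 or R3 replicate 2 (limma adjusted p up to 0.0721) and Usp36 without R2 replicate 1 or 2 or R3 replicate 1 or 2 (limma adjusted p up to 0.0998), where Usp36 and Psmd7 changed by -1.54 ± 0.41 and -1.23 ± 0.28.

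Lysosomal genes were called both ways, in numbers that moved with the scaling. Of 41 measured, 7 rose and 9 fell, or 17.1% and 22.0% beside 10.6% and 10.1% of all genes, with a median of -0.58. After centring 3 rose and 16 fell, and with 1 array left out 2 to 7 rose and 1 to 13 fell. Beside Ctsf, the protease gene Ctsb rose by 2.17 ± 0.30. Ctsc, which activates granule proteases, changed by -2.08 ± 0.56 and the sialidase gene Neu1 by -1.68 ± 0.43. Subunits of the proton pump were called both ways on the deposited scale. Their balance after centring is not given apart from the 3 rises and 16 falls of the whole list. Atp6v0a1 changed by 1.97 ± 0.49, Atp6v1d by 1.31 ± 0.33, Atp6v1e1 by 1.28 ± 0.29 and Atp6v0d1 by 1.20 ± 0.26. Atp6v1h was at 10.76, 10.93 and 10.87 on the R2 arrays and 9.31, 8.30 and 9.58 on the R3 arrays, without overlap (-1.79 ± 0.35, limma adjusted p = 0.00769). Atp6v1a also fell (-0.88 ± 0.26). The calls of Atp6v1d, Atp6v1e1, Atp6v0d1 and Atp6v1a were each lost in some fit that leaves out 1 array. Taking the median over its probe sets turned the change of Neu1 to 0.96. Calls were not kept for Ctsc, Neu1 and Atp6v0a1 without R2 replicate 1 or 2 or R3 replicate 1 or 2 (limma adjusted p up to 0.107). Of 21 cholesterol genes 3 fell and 1 rose, or 14.3% and 4.76%, with a median of -0.45. After centring 6 fell, and 0 to 5 fell with 1 array left out. Fdft1, which makes squalene, rose by 1.44 ± 0.25 and Dhcr7, which makes cholesterol itself, changed by -1.93 ± 0.49. The call of Dhcr7 was lost without R2 replicate 1 or 2 or R3 replicate 2 or 3 (limma adjusted p up to 0.0922).

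Nuclear transport held 1 of the larger rises. Xpo7, an exporter of proteins from the nucleus, was at 10.45, 11.38 and 9.58 on the R2 arrays and 14.89, 15.44 and 15.21 on the R3 arrays. The lowest R3 array was above the highest R2 array by more than 3 (4.71 ± 0.44, limma adjusted p = 0.000323). Of the 46 genes of nuclear pore and transport 2 rose and 6 fell, with a median of -0.46, and the second rise was Kpna1 (0.99 ± 0.30). Centring gave 1 rise and 16 falls, and the fits without 1 array 1 to 4 rises and 2 to 16 falls. Xpo5, which exports microRNA precursors, changed by -1.49 ± 0.40. Of 15 lamina and inner envelope genes 2 rose and 1 fell, or 13.3% and 6.67%, with a median of -0.02. In that list 0 rose and 2 fell after centring, and 0 to 3 did each with 1 array left out. Lmna changed by 1.38 ± 0.39, Lbr by 1.06 ± 0.32 and Lmnb2 by -1.94 ± 0.42. The test was no longer passed by Kpna1 and Lbr without R1 replicate 1 or 2 or R2 replicate 1, 2 or 3 or R3 replicate 1, 2 or 3 (limma adjusted p up to 0.155), Xpo5 without R2 replicate 1 or 2 or R3 replicate 1 or 2 (limma adjusted p up to 0.101), Lmna without R2 replicate 1 or 2 or R3 replicate 1, 2 or 3 (limma adjusted p up to 0.12) and Lmnb2 without R2 replicate 1 or R3 replicate 2 (limma adjusted p up to 0.0585).

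Among histone-modifying enzymes, 8 of 51 rose and 11 fell, or 15.7% and 21.6% beside 10.6% and 10.1% of all genes, with a median of -0.19. Centring gave 3 rises and 17 falls, and leaving out 1 array gave 2 to 9 rises and 2 to 12 falls. Kat2a, an acetyltransferase, was at 11.12, 10.78 and 10.34 on the R2 arrays and 8.41, 7.12 and 8.73 on the R3 arrays, lower on all R3 arrays (-2.66 ± 0.55, limma adjusted p = 0.0104). The methyltransferase genes Ehmt2 and Prmt5 changed by -2.05 ± 0.51 and -1.89 ± 0.50. Kdm7a, a demethylase, was at 9.35, 10.80 and 10.0 on the R2 arrays and 12.70, 13.60 and 12.84 on the R3 arrays, higher on all R3 arrays (2.99 ± 0.52, limma adjusted p = 0.00492). Hdac11 rose by 2.22 ± 0.45 and Ezh1 by 1.85 ± 0.41, while Ezh2, the other catalytic subunit of its complex, had a change of 0.01 and did not pass the test. Of 13 DNA methylation genes, with a median of -0.33, Dnmt1 rose (0.95 ± 0.28) and Dnmt3b fell (-2.34 ± 0.67), or 7.69% each way. In that list 0 rose and 4 fell after centring, and 0 or 1 rose and 0 to 4 fell with 1 array left out. Calls were lost for Ehmt2 and Prmt5 without R2 replicate 1 or 2 or R3 replicate 2 (limma adjusted p up to 0.107), Ezh1 without R2 replicate 1 or R3 replicate 2 (limma adjusted p up to 0.0618), Dnmt1 without R2 replicate 1, 2 or 3 or R3 replicate 1, 2 or 3 (limma adjusted p up to 0.126) and Dnmt3b without R1 replicate 1 or 2 or R2 replicate 1, 2 or 3 or R3 replicate 1 or 2 (limma adjusted p up to 0.133).

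Of 49 splicing factors 2 rose and 4 fell, or 4.08% and 8.16%, with a median of -0.34. After centring 1 rose and 14 fell, and 1 to 4 rose and 0 to 7 fell with 1 array left out. Rbm38, a splicing regulator of erythroblasts, was at 11.25, 11.63 and 11.34 on the R2 arrays and 14.02, 14.32 and 13.71 on the R3 arrays, without overlap (2.61 ± 0.29, limma adjusted p = 0.000572). Snrpf, a core protein of spliceosomal particles, changed by -2.18 ± 0.49, and its call was lost without replicate 1 or 2 of R2 or replicate 2 of R3 (limma adjusted p up to 0.0647).

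Cell cycle regulators were called in both directions. Of 44 cyclins, cyclin-dependent kinases, E2F and pocket proteins 12 rose and 6 fell, or 27.3% and 13.6% beside 10.6% and 10.1% of all genes, with a median of 0.42. The balance turned with centring, to 6 rises and 12 falls, and single arrays left out gave 6 to 15 rises and 1 to 12 falls. E2f2, an E2F factor of late erythroblasts, was at 9.09, 10.79 and 10.60 on the R2 arrays and 13.68, 14.29 and 13.70 on the R3 arrays. R3 was higher on every array (3.73 ± 0.50, limma adjusted p = 0.00134). Tfdp2, the dimer partner of E2F factors, rose by 3.65 ± 0.46 and Rb1, the retinoblastoma protein that restrains them, was at 9.98, 11.12 and 11.22 on the R2 arrays and 12.77, 13.78 and 13.02 on the R3 arrays, without overlap (2.41 ± 0.44, limma adjusted p = 0.00615).

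The falls in that list included Cdk6 (-2.21 ± 0.61), a partner of D cyclins, and Cdk7 (-1.66 ± 0.31), the kinase that activates others, for which 2 of 5 tested probe sets had the opposite sign. Ccnd2 had a change of -1.68 and did not pass. The call of Cdk6 was lost without R2 replicate 1 or 2 or R3 replicate 1 or 2 (limma adjusted p up to 0.112). Of 22 p53 targets 3 rose and 3 fell, or 13.6% each way, with a median of 0.13. With 1 array left out 2 to 4 rose and 0 to 3 fell (2 and 4 after centring). Btg2, an inhibitor of proliferation, changed by 3.27 ± 0.40 and Polk, a DNA polymerase, by 1.40 ± 0.28.

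Of 28 Bcl2 family and cell death genes 1 rose and 1 fell, or 3.57% each beside 10.6% and 10.1% of all genes, with a median of -0.24. The falls came to 9 after centring and to 0 to 4 over the fits without 1 array. Bcl2l1, which encodes the survival protein of maturing erythroblasts Bcl-xL, was at 9.0, 9.48 and 9.28 on the R2 arrays and 11.93, 12.89 and 12.25 on the R3 arrays. It was higher on all R3 arrays (3.10 ± 0.40, limma adjusted p = 0.00107). Bid, which promotes cell death, was at 11.29, 11.05 and 10.98 on the R2 arrays and 8.97, 7.72 and 9.45 on the R3 arrays, without overlap (-2.39 ± 0.51, limma adjusted p = 0.0119). Without replicate 1 of R2 the adjusted p of Bid was 0.0509. Of 42 actin and cytokinesis genes 3 rose and 4 fell, or 7.14% and 9.52%, with a median of -0.33. Centring gave 1 rise and 10 falls, and 1 to 3 rose and 0 to 10 fell with 1 array left out. Rock1, a kinase of actin contraction, changed by 1.56 ± 0.28 and Diaph3, a formin, by 1.82 ± 0.46, the latter losing its call without R2 replicate 1 or 2 or R3 replicate 2 or 3 (limma adjusted p up to 0.0945).

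Transcription factors and growth regulators were called in both directions. Of 36 Gata, Klf and nuclear receptor genes and their partners 6 rose and 4 fell, or 16.7% and 11.1%, with a median of 0.25. With 1 array left out 3 to 7 rose and 0 to 5 fell (4 and 5 after centring). Ncoa4, a nuclear receptor partner that also delivers ferritin to autophagy, was at 12.36, 12.89 and 12.42 on the R2 arrays and 14.56, 15.07 and 15.08 on the R3 arrays, without overlap (2.35 ± 0.31, limma adjusted p = 0.00119). Klf3, a repressor that Klf1 activates, rose by 2.34 ± 0.45. Klf9 changed by -1.82 ± 0.42. Of 33 Myc network and growth control genes 6 rose and 7 fell, or 18.2% and 21.2%, with a median of -0.28. After centring 4 rose and 13 fell, and 3 to 7 rose and 0 to 8 fell with 1 array left out. The Myc antagonists did not move together. Mxd1 and Mxd3 rose by 4.25 ± 0.61 and 3.0 ± 0.49. Mxi1 rose too (1.485 ± 0.336, limma adjusted p = 0.0148), but not in every fit that leaves out 1 array. Mxd4 and Mga, named after their values were seen, fell (-1.48 ± 0.44 and -1.51 ± 0.36, limma adjusted p = 0.0384 and 0.0179), and Mnt did not pass the test (-1.16 ± 0.43). The calls of Mga were lost without R2 replicate 1 or 2 or R3 replicate 1 or 2 (limma adjusted p up to 0.0711), and those of Mxd4 also without either R1 array (up to 0.13). Both were lost with the median over probe sets (limma adjusted p = 0.607 for Mga and 0.21 for Mxd4), as was that of Mxd4 after quantile normalization or without the intensity trend. Foxo3, a factor that growth signals keep out of the nucleus, rose by 3.16 ± 0.27.

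Myc was at 11.95, 11.77 and 11.86 on the R2 arrays and 10.05, 8.96 and 9.85 on the R3 arrays. All R3 arrays were lower and replicate 2 was lowest (-2.24 ± 0.48, limma adjusted p = 0.012), and its adjusted p was 0.053 without that array. Mlxip, which encodes a partner of Mlx, changed by -1.92 ± 0.44. Calls were not kept for Klf9 without R2 replicate 1 or R3 replicate 2 (limma adjusted p up to 0.0618) and Mlxip without R2 replicate 1 or 2 or R3 replicate 2 (limma adjusted p up to 0.0649).

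**Figure D5:**
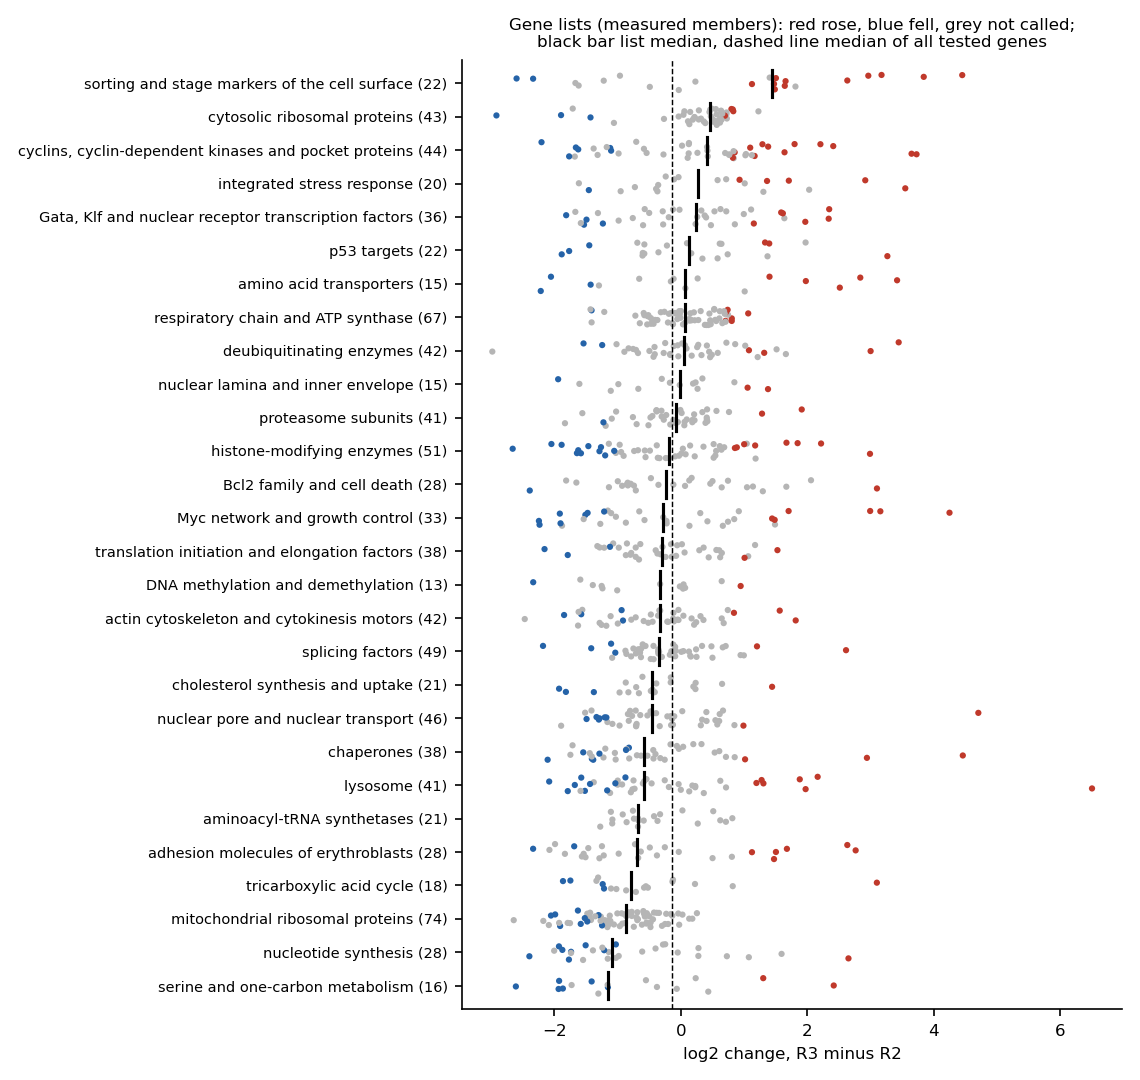
Log2 change of every measured member of the gene lists, 1 row a list with the number measured, coloured red where the gene rose, blue where it fell and grey where it was not called, with a black bar at the list median and a dashed line at the median of all genes (-0.14). The surface markers have a median of 1.44 and the nucleotide and one-carbon lists medians of -1.08 and -1.16.

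The named genes took different courses over the other stages. Slc2a1 had stage means of 11.94 in R1, 11.18 in R2, 15.51 in R3 and 16.51 in R5. Icam4 had 9.24, 11.65, 14.28 and 13.73 in the same order, and Rb1 had 10.50, 10.78, 13.19 and 12.24. Of these 3 genes, Slc2a1 was highest in R5 and the others in R3. Kit stood at 11.56, 11.83, 9.23 and 9.77 and Cd44 at 13.07, 12.50, 10.16 and 11.02, so that R3 was the lowest of these stage means for both. These are levels of 2 or 3 arrays a stage, and no test of R5 against R3 is given.

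Promoter windows were searched for motifs of factors known in this lineage, on both strands, in 1436 windows of genes that rose, 1417 of genes that fell and 13460 of all tested genes. AGATAA, of the Gata type, was in 8.91% of the windows of rises, 6.0% of those of falls and 7.04% of all. CACACCC, of the Klf1 type, was in 9.19%, 6.85% and 8.53%. CACGTG, the E-box bound by Myc and its relatives, was in 7.94%, 12.8% and 9.46%. TTCCCGC or TTGGCGC, of the E2F type, were in 9.75%, 11.4% and 11.2%. These shares are descriptions, and a gene can have several windows, some of which overlap.

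Slc36a1 and Cdk6 are named falls whose windows hold the E-box, in capitals below, and are shown as examples of it.
Slc36a1, chr11:55204090-55204389, + strand: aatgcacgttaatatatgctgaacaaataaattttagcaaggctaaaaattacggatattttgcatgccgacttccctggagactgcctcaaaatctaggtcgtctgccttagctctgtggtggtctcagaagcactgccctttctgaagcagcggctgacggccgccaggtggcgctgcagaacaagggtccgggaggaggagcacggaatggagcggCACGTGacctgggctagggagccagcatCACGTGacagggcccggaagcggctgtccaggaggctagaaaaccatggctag
Cdk6, chr5:3343643-3343942, + strand: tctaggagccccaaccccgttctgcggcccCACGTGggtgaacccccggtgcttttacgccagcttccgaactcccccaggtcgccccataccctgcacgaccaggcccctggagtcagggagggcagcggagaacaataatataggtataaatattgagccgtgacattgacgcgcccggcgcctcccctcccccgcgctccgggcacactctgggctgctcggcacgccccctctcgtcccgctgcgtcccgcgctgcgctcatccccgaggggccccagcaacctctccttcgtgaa
Slc36a1 was at 8.34, 8.86 and 8.0 on the R2 arrays and 6.37, 6.19 and 5.99 on the R3 arrays and Cdk6 at 12.77, 12.61 and 11.96 on the R2 arrays and 10.56, 9.05 and 11.11 on the R3 arrays. Both were lower on all R3 arrays, and both calls depended on single arrays as given above.

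Centring arrays on their median turned the median change of 6 gene lists and of the megakaryocyte markers from positive to negative. It was then -0.34 for the respiratory chain, -0.33 for amino acid transporters, -0.36 for deubiquitinating enzymes, -0.27 for p53 targets, -0.13 for the integrated stress response, -0.16 for the Gata, Klf and nuclear receptor list and -0.31 for the megakaryocyte markers.

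Some named genes kept their direction but not their call under another scaling or choice of probe set. After quantile normalization, calls were lost for Rplp0, Mrps6, Cox6a1, Dhodh, Slc36a1, Slc6a6, Usp36, Dnmt1, Xpo5, Lmna, Lbr and Eif2ak4 (limma adjusted p up to 0.678). With arrays centred on their median, calls were lost for Rplp0, Cox6a1, Mthfd2, Dnmt1, Kpna1, Lmna, Lbr, Diaph3, Mrc1 and Lmo2 (limma adjusted p up to 0.297). Where a gene took the median over its probe sets in place of the brightest, calls were lost for Hbb-b2, Dnmbp, Rplp0, Mrps6, Mrpl19, Idh2, Slc36a1, Fdft1, Psme3, Psmd7, Usp36, Hspa9, Dnmt1, Kpna1, Lmna, Lbr, Cdk7, Ctsc, Atp6v1h, Rock1, Klf9, Cd8a, Hdc and Cxcl12 (limma adjusted p up to 0.628). Without the intensity trend in eBayes, calls were lost for Rplp0, Mrps6, Mrpl19, Idh2, Dhodh, Slc19a1, Slc36a1, Slc38a1, Dnmt1, Dnmt3b, Kpna1, Lmna, Lbr, Cdk6, Eif2ak4 and Ctsc (limma adjusted p up to 0.0821). Without the filter on dim probe sets, calls were lost for Rplp0, Mrps6, Slc36a1, Dnmt1, Lbr and Eif2ak4 (limma adjusted p up to 0.0902).

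Over all 45037 probe sets other than controls, 3819 were called, or 8.48%, with 2216 higher and 1603 lower in R3. In the authors' deposited table of log2 differences from R2, 1163 of the same probe sets had a p-value under 0.05, with 944 higher and 219 lower in R3. These deposited p-values equal, within 0.000553, the adjusted p-values of the same fit over all probe sets without the intensity trend, which also called 1163. The larger count above thus goes with the trend, and not with a different threshold.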

How the data were processed

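RNA of sorted fetal liver cells was measured on 11 arrays, of which the 3 of R2 and 3 of R3 were compared. The deposited values are signal intensities on a linear scale, 1 for each probe set, and MAS5 and limma are named in the submitters' processing notes. A mean that leaves out the 2% lowest and 2% highest deposited intensities was 500 on every array. A second deposited table gives the authors' log2 differences from R2 and p-values. There were no detection calls to use, and precision is limited by the number of arrays. The labels name the dye Cy5, while the probe set identifiers are those of a short-oligonucleotide array, so the labelling step remains unclear.

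Intensities were taken to log2 with no pseudocount and no further normalization. Of 45101 probe sets 64 were controls. Of the rest, 34945 had 1 gene in the platform annotation, 932 had several and 9160 had none listed. Each of 18194 genes was represented by its brightest probe set with 1 gene, and 13100 were tested, those at or above the array median on at least 2 arrays. For 67 of them the annotation's symbol was kept for want of a matching gene identifier. A single fit of all 11 arrays was made with a mean per stage (limma 3.58.1 in R 4.3.3, lmFit and eBayes with an intensity trend, 6 residual and 4.83 prior degrees of freedom), with Benjamini-Hochberg adjustment over all 13100 genes and a threshold of 0.05. The steps were tested on simulated data.

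The 28 gene lists and 8 marker lists, the members and the alternatives were chosen with earlier results of these data known. The genes named are the 12 largest rises and 12 largest falls whose arrays do not overlap, the 6 of each direction with the largest moderated t, up to 3 rises and 3 falls of each list, and Tfrc, without unnamed transcripts. Not every gene of that rule is described. Members given as not passing the test, and further members of the endothelial, macrophage, lysosomal, ribosomal, stress response and Myc lists, were picked after their values were seen. Other settings are not given for every such member. A further gene of that rule is not reported here. Promoter windows and microRNA sequences are those of RefSeq on GRCm38.p6, with windows for 10547 of the tested genes.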

Additional observations from a re-analysis of the deposited data

How the results depend on the processing

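The labels say only that a set of replicates shared an extraction date, without saying what a set is. The deviations of same-numbered R2 and R3 arrays from their stage means correlated at 0.15, 0.05 and -0.15 across genes, so the numbers were not taken to pair the arrays. With the number as a replicate block, 4197 genes and 6573 probe sets were called and 2377 genes fell. With only the R2 and R3 arrays 2126 genes fell, and with those arrays and the replicate block 2064 genes fell and 5868 probe sets were called. After quantile normalization 862 genes fell. With arrays centred on their median 862 genes rose and 3103 fell. Without the intensity trend 851 genes fell and 1163 probe sets were called. With 1 array left out in turn, 840 to 3920 genes were called, 621 to 1683 rose and 203 to 2241 fell, and 1028 to 5640 probe sets were called. The cause of these shifts was not tested. Counts of genes stayed within 1.5 times without the filter on dim probe sets (2348 called), with a stricter one (2749), with 32 added to the signal (3012) and with the median over probe sets (2267). That last choice gave 75 of the called genes the opposite sign, among them Slc6a6 at 0.53 and Neu1 at 0.96, and none of the other alternatives did so for any called gene. Of 174 named genes 79 kept their call with each array left out in turn. With only the R2 and R3 arrays and the replicate block, Dnmbp, Xpc, Flna, Was, Cdh1, Ppara, Mrc1, Hdc and Cxcl12 did not pass (limma adjusted p = 0.0549 to 0.0991). The size of the change is less certain in 309 rises dim on all R2 arrays and 83 falls dim on all R3 arrays. Their direction was not tested apart.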
